A study of Drosophila melanogaster with 12 samples.

Results

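This report describes 486 regions of the Drosophila melanogaster genome, on the autosomal arms and away from the ends of genes. The zinc-finger proteins CLAMP and CP190 were both found at them in mock-treated cells. The cells were Kc167, an established line derived from embryos and labelled female. A region was called reproducible when it was the union of overlapping peaks of 1 antibody and held a peak in both replicate lists of mock cells. Members were the reproducible CLAMP regions on arms 2L, 2R, 3L and 3R that overlapped a reproducible CP190 region by at least 1 bp and whose mean mock CLAMP summit lay more than 500 bp from the start and the end of every annotated protein-coding gene. They made up 13.3% of the 3655 reproducible CLAMP regions and 42.3% of the 1149 autosomal regions shared by the proteins. They fell at 115 on 2L, 116 on 2R, 123 on 3L and 132 on 3R. The members were thus chosen from the mock lists, and all mock values below are descriptions without a test.

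CP190 is a protein of Drosophila chromatin insulators, the DNA elements that limit contact between enhancers and promoters and that mark borders between chromatin domains. It is brought to DNA by partner proteins that recognise sequence. CLAMP binds GA-rich DNA, is best known for its part in male X-chromosome dosage compensation, and has also been linked to insulator function. Both proteins are widely found at promoters, so shared regions inside and between genes form a less studied share of their binding sites.

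The study used chromatin immunoprecipitation with sequencing in cells that were nucleofected without RNA (mock) or with 12 µg of double-stranded RNA that targets CP190 (dsCP190), followed by 6 days of growth. Each of the 4 groups, which are the pairings of 2 antibodies and 2 treatments, had 2 replicates, and each replicate had its own peak list. The 4 input libraries were not analysed here. The series design text names CLAMP as the protein depleted. The title and the labels of all samples name CP190 instead, and the labels were followed.

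The lists differed in size and depth. For CLAMP, the mock lists counted 4471 and 4514 peaks on the chromosome arms, and the lists of dsCP190 replicates 1 and 2 counted 2468 and 901. For CP190, the numbers were 7669 and 7964 without the RNA, and 2047 and 3138 with it. Judged by the local background at summits called in both lists, the dsCP190 CLAMP libraries had between 0.359 and 0.449 of the depth of the mock libraries, and the dsCP190 CP190 libraries had between 0.530 and 0.922. The 2 dsCP190 CLAMP libraries were thus of like depth, although their lists differed in length. In the text below, a protein is called kept or lost by the presence of a peak in a dsCP190 list, whatever its height.

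In mock cells the members were strong CLAMP sites. Their median within-list percentile of CLAMP fold enrichment, averaged over the mock lists, was 68.4, against 43.3 at the 663 autosomal shared regions at gene ends and 56.4 at the 1268 autosomal CLAMP regions off gene ends that had no CP190. The fold enrichment is the authors' value for each peak, the summit signal over the local background. The median CLAMP fold of the members was 5.59 in mock replicate 1 and 6.04 in mock replicate 2. For CP190 the median percentile was 63.3, close to the 64.8 of shared regions at gene ends and above the 50.6 of the 1890 autosomal CP190 regions off gene ends without CLAMP. The median CP190 fold was 10.5 in both mock lists. The strengths of the proteins did not rise together. The Spearman correlation of the percentiles was -0.03 over the 486 regions, which share libraries. The overlapping CP190 regions were also broad, with a median width of 1100 bp against 726 bp for CP190 regions off gene ends without CLAMP.

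Most members lay inside genes. The CLAMP summit was inside a protein-coding gene at 409 members (84.2%, 95% Wilson interval 80.6 to 87.1) and between genes at 77. Wilson intervals here cover counting error only. Of all autosomal positions more than 500 bp from gene ends, 65.6% lay inside a protein-coding gene, and so did 76.0% of the CLAMP regions without CP190 and 59.8% of the CP190 regions without CLAMP. The members were not far from gene ends. The median distance from the CLAMP summit to the nearest end was 1330 bp (quartiles 773 and 5023 bp), and 281 members lay within 2000 bp. For CLAMP regions off gene ends without CP190 the median was 5304 bp. At the threshold itself, the members nearest to a gene end were at Ack (500.5 bp), Su(Tpl) (505 bp) and CG13116 (506 bp), and the nearest regions on the other side were at drk (500 bp), CG4502 (499 bp) and CG9399 (498.5 bp).

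The description as off gene ends holds for CLAMP and in part for CP190. At 190 members (39.1%) the CP190 summit lay within 500 bp of a gene end, while the CLAMP summit lay farther away. At 177 of these the CLAMP summit was inside a gene, and at 131 the CP190 summit lay at an end of that same gene. The summits of the proteins were a median of 514.5 bp apart over all members, 849 bp where CP190 sat at a gene end and 116.5 bp where it did not. The rule keeps CLAMP summits, but not CP190 summits, over 500 bp from gene ends. It thus partly sets these gaps and the shares of close summits that follow. The summits lay within 100 bp of each other at 139 members (28.6%), against 40.7% of the shared regions at gene ends, and more than 500 bp apart at 249. Mock replicates placed a summit more exactly than this. The mock summits of the members differed between replicates by a median of 22 bp for CLAMP and 18 bp for CP190.

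**Figure D1:**
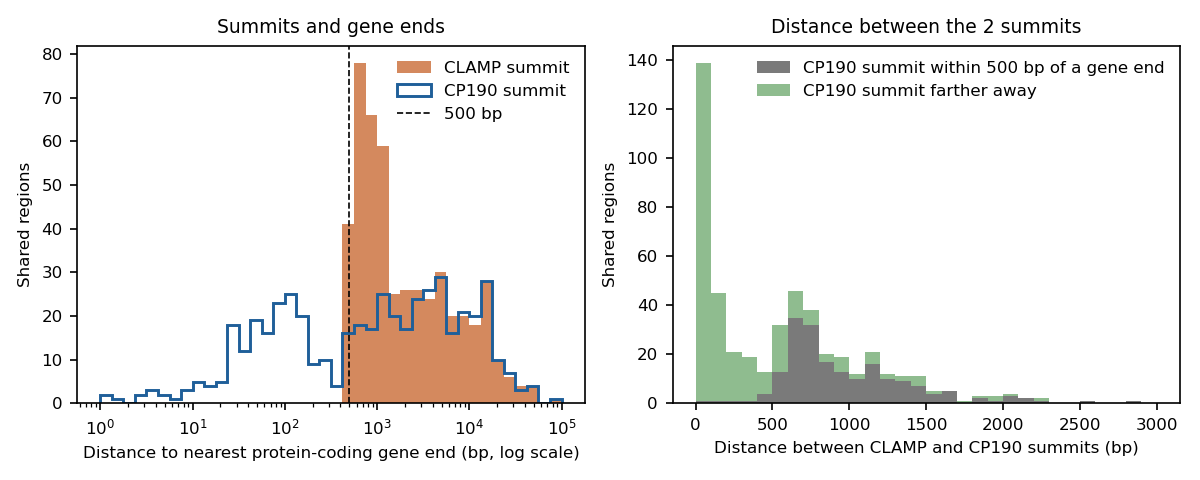
Left, number of the 486 shared regions by distance of the CLAMP summit (filled) and the CP190 summit (line) from the nearest protein-coding gene end in bp, on a log axis, with the 500 bp limit dashed. Right, number of regions by distance between the CLAMP and CP190 summits in bp, stacked by whether the CP190 summit lay within 500 bp of a gene end. CLAMP summits lie above 500 bp by choice, and 190 CP190 summits lie within it. Regions with CP190 at a gene end fill most of the range above 500 bp between summits, which that choice partly sets.

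The host genes were long. The 409 members inside genes fell into 371 protein-coding genes, which were 3.19% of the 11639 on the autosomal arms, and 45 genes held at least 2 members. The median length of a host gene was 13383 bp, against 2079 bp for all autosomal protein-coding genes. The share of genes with a member rose with length, from 0.552% of genes up to 5000 bp to 21.1% of genes over 50000 bp. The 500 bp rule leaves more room for a member in a longer gene, so such a rise is partly set by the rule. A total of 11 genes held 3 or more members. Eip75B, an ecdysone-induced nuclear receptor, and tara, a nuclear regulator of the cell cycle, held 5 each. SNF4Agamma, a subunit of AMP-activated protein kinase, and Eip74EF, an ecdysone-induced ETS factor, held 4 each. Those with 3 were pros, ftz-f1, InR, brat, REPTOR, crp and COX7AL2.

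Genes of the ecdysone response, the steroid hormone cascade that drives moulting and metamorphosis and to which Kc cells respond, had the highest share of genes with a member among the lists described here. Of 9 autosomal genes on that list 5 held a member (Eip75B, Eip74EF, ftz-f1, EcR and Hr39), with 14 members in all. Their median length was 60654 bp, and genes of that size held a member in 21.1% of cases. The Hox complexes had 2 of 10 genes with a member, Abd-B and Antp. On the other 8 lists the counts were 2 of 15 for the Notch pathway, 2 of 16 for axon guidance and cell adhesion, 2 of 19 for EGF and FGF receptor signalling, 2 of 28 for homeodomain genes, and 1 each of 14 hemocyte genes, 16 Wnt and Hedgehog genes, 15 insulator genes and 15 Polycomb group genes. The members on the last 4 lists were at ush, fz2, mod(mdg4) and Su(z)2. These counts were not tested, and the lists were chosen with earlier results in view.

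After dsCP190, CLAMP was still called at 343 members in dsCP190 replicate 1 (70.6%, 95% Wilson interval 66.4 to 74.5), against 59.9% of all reproducible CLAMP regions. In dsCP190 replicate 2 it was called at 147 (30.2%, interval 26.3 to 34.5), against 22.1% of all. The mean over the 2 libraries was 50.4% ± 28.5 (SD, n = 2), so the spread between replicates was wide. CLAMP had a peak in both lists at 146 members (30.0%; 21.9% of all CLAMP regions), in neither at 142 (29.2%; 40% of all), and in 1 list alone at 198 (38.1% of all), of which 197 were in replicate 1. Apart from 1 member, the calls in the shorter list were thus nested in those of the longer one.

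CP190 itself was still called at 224 members in dsCP190 replicate 1 (46.1%, interval 41.7 to 50.5), against 24.2% of all reproducible CP190 regions. In replicate 2 it was called at 289 members (59.5%, interval 55.0 to 63.7), against 40% of all. The mean was 52.8% ± 9.46 (SD, n = 2). It had a peak in both lists at 202 members (41.6%; 22.6% of all CP190 regions), in neither at 175 (36.0%; 58.4% of all) and in 1 list alone at 109 (19.1% of all). In a knockdown of CP190, CP190 peaks thus remained at 311 of the 486 members in at least 1 list. The order of the 2 libraries differed between the proteins, since replicate 2 had the fewer CLAMP calls and the more CP190 calls. A member counted as called if any CP190 region that it overlapped had a peak, and 18 members overlapped more than 1. A total of 28 members shared 14 CP190 regions, which were counted once per member. The shares of all CP190 regions count each region once, and the intervals treat members as separate.

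Compared with CP190 regions off gene ends that lack CLAMP, the members kept CP190 more often. The share with a CP190 peak was 46.1% against 15.8% in replicate 1 and 59.5% against 28.4% in replicate 2, a mean difference of 30.7 percentage points ± 0.590 (SD, n = 2). With the comparison regions weighted to the mock strength of the members, the difference was 25.4 points in replicate 1 and 23.0 in replicate 2. The exact sign-flip permutation test over the 2 libraries gave p = 0.5, the smallest p it can give with 2 pairs. The difference was 28.7 points when an overlapping dsCP190 peak also had to reach within 100 bp of the mean mock summit. The widths of region and peak still enter that rule, and their part was not tested. The difference was 17.9 points when shared meant summits within 100 bp of each other. With only peaks of a −log10 q of at least 10, it was 15.5 points. All comparison regions had their CP190 summit off gene ends. Without the members whose CP190 summit lay at a gene end, the difference was 23.9 points ± 5.04 (SD, n = 2).

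By the rule used here, the CP190 shares differed from those of shared regions at gene ends by less than the spread between libraries. They were 46.1% and 46.6% in replicate 1 and 59.5% and 66.2% in replicate 2, a mean difference of -3.63 points ± 4.41 (SD, n = 2; exact sign-flip permutation p = 0.5). After weighting for mock strength the differences were 1.45 and -1.66 points, of opposite sign. Other definitions gave larger mean differences: -10.5 points ± 10.0 (SD, n = 2) without the members whose own CP190 summit lay at a gene end, -11.1 ± 8.94 with a gene-end limit of 1000 bp and -9.62 ± 5.84 with summits within 100 bp of each other. Each of these was larger than its SD, the first by a small margin.

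CLAMP calls were more frequent at members than at both other classes of CLAMP regions before strength was taken into account. Shared regions at gene ends kept CLAMP at 55.7% in replicate 1 and 15.2% in replicate 2, which is 14.9 and 15.01 points below the members (exact sign-flip permutation p = 0.5). CLAMP regions off gene ends without CP190 kept it at 56.3% and 19.5%, which is 14.3 and 10.8 points below (exact sign-flip permutation p = 0.5). With these classes weighted to the mock strength of the members, the differences were -3.73 and 3.90 points against shared regions at gene ends and 4.82 and 0.03 points against CLAMP regions without CP190. The weighted differences were no larger than the spread between libraries against shared regions at gene ends, and their mean of 2.42 points against CLAMP regions without CP190 was smaller than its SD of 3.39. Without the members whose CP190 summit lay at a gene end, the mean unweighted differences were 8.98 and 6.53 points, and with shared meaning summits within 100 bp of each other the second was 1.32 points.

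**Figure D2:**
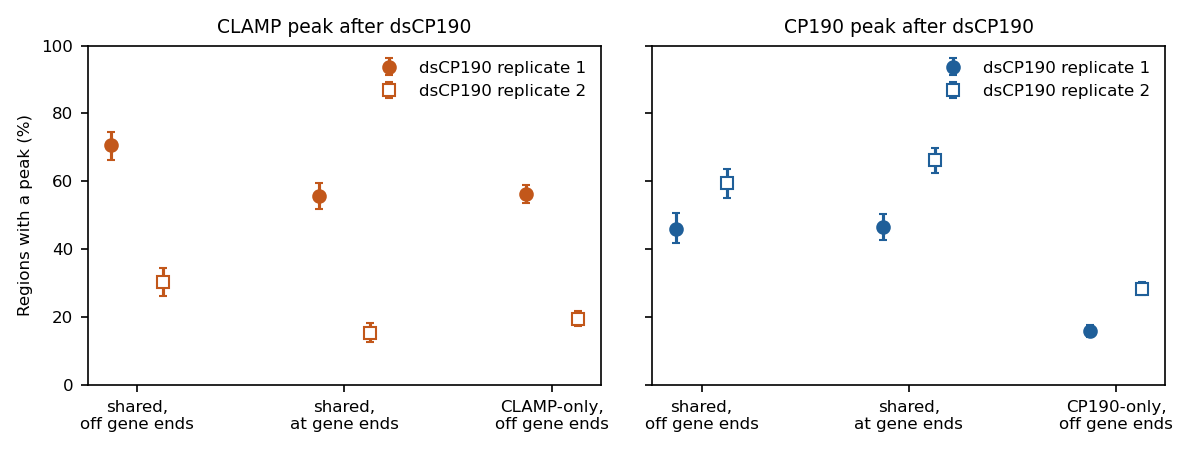
Share of regions in percent with a CLAMP peak (left) and a CP190 peak (right) in dsCP190 replicate 1 (filled) and replicate 2 (open), for the 486 shared regions off gene ends and the comparison classes; bars are 95% Wilson intervals. The shared regions off gene ends sit at 70.6% and 30.2% for CLAMP and at 46.1% and 59.5% for CP190, and CP190 regions without CLAMP sit lowest for CP190 at 15.8% and 28.4%.

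The share of members with a dsCP190 peak rose with mock strength for CLAMP in both lists and for CP190 in replicate 2. All reproducible regions of an antibody were divided into quintiles by mock fold percentile, and the members were placed in them. In the weakest CLAMP quintile, CLAMP was called at 16 of 80 members in replicate 1 and at 0 of 80 in replicate 2, where the interval reached 4.58%. In the strongest it was called at 145 of 145 members and at 114 of 145. These shares followed those of all CLAMP regions, which rose from 14.1% to 99.9% in replicate 1 and from 0.547% to 80.4% in replicate 2.

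For CP190 the members lay above all CP190 regions in every quintile and both lists, and so did the shared regions at gene ends. In the strongest quintile the shares were 90.6% and 97.6% of 127 members, against 74.0% and 89.8% of all CP190 regions and 90.5% and 98.9% of the shared regions at gene ends. In the third and the fourth quintile the shared regions at gene ends lay above the members, at 22.8% and 55.0% against 20.8% and 40.3%, and at 53.3% and 91.8% against 50.0% and 85.7%. In the second quintile the shares were 12.3% and 19.2% of 73 members, and the replicate 1 share was below that of the weakest quintile. In the weakest quintile the shares were 25.3% and 14.5% of 83 members, against 2.99% and 2.52% of all CP190 regions. CP190 regions off gene ends without CLAMP had a dsCP190 peak at 0 of 454 in that quintile in replicate 1 and at 3 of 454 in replicate 2. Shared regions at gene ends were called at 12.7% (interval 6.30 to 24.0) and 9.09% (3.95 to 19.6) in that quintile, and these intervals overlapped those of the members (17.2 to 35.6 and 8.47 to 23.6). Calls at weak mock CP190 sites were thus seen at shared regions in both places, and their difference was not tested. Of the 83 members, 21 were in the strongest CLAMP quintile, and CP190 was called at 9 of these in replicate 1 and at 3 in replicate 2. Of the other 62 it was called at 12 and 9.

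**Figure D3:**
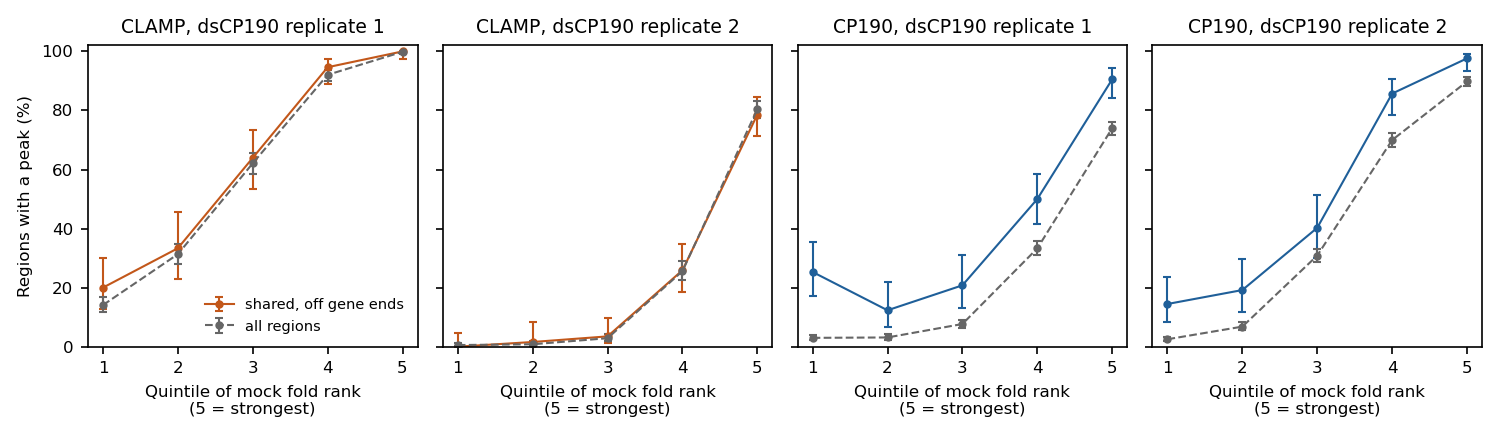
Share of regions in percent with a peak in each dsCP190 list by quintile of mock fold rank, from 1 (weakest) to 5 (strongest), for the shared regions off gene ends (coloured, solid) and all reproducible regions of the antibody (grey, dashed); bars are 95% Wilson intervals. For CLAMP the lines lie together, ending at 100% and 78.6% for the shared regions, and for CP190 the shared regions off gene ends lie above all regions in each quintile, as do those at gene ends, which are not drawn.

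Most members without a dsCP190 peak had a mock fold that the depth of the list could still have called. At the depth of the dsCP190 library, the mock CLAMP fold would have reached the lowest −log10 p of the list at 480 members in replicate 1 and at 452 in replicate 2, and 342 and 147 of these were called. Of the members without a CLAMP peak, 138 of 143 in replicate 1 and 305 of 339 in replicate 2 would have reached it. Among all CLAMP regions without a peak, 1398 of 1466 and 2466 of 2849 would have done so. For CP190 all 486 members would have reached the limit in both lists, as would 99.9% of all CP190 regions. Each missing CP190 call was thus at a site whose mock fold could be called at that depth. The limit is the lowest value in a list and takes no account of counting error. Where a peak was called, its dsCP190 fold was below the mean mock fold at 240 of 343 members for CLAMP in replicate 1 (median ratio 0.837) and at 145 of 147 in replicate 2 (median 0.393). For CP190 it was below at 215 of 224 (median 0.294) and at 273 of 289 (median 0.390). These ratios leave out the members without a peak and so lie above those of the whole set. Over all reproducible regions with a dsCP190 peak, the median ratios were 0.867 and 0.453 for CLAMP and 0.252 and 0.367 for CP190 in replicates 1 and 2. In the strongest CLAMP quintile, where replicate 1 had a peak at all 145 members, the median ratio was 0.811, against 0.862 in that quintile of all CLAMP regions.

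**Figure D4:**
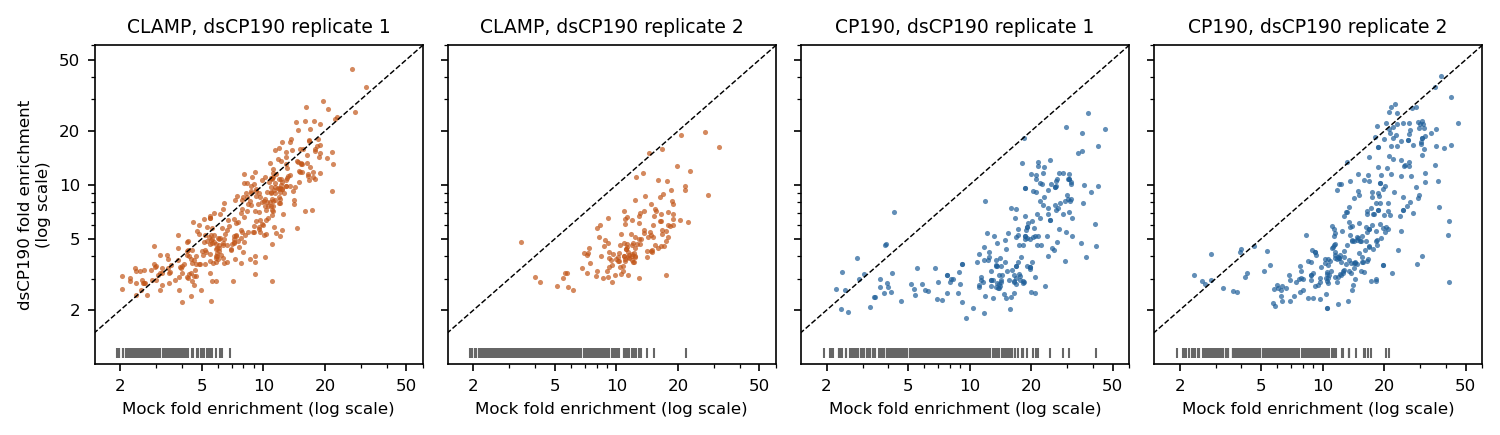
Fold enrichment in each dsCP190 list against the mean mock fold enrichment of the same region, both on log axes, for CLAMP and CP190 in replicates 1 and 2; each point is 1 of the shared regions off gene ends with a peak, ticks at the foot are regions without one, and the dashed line marks equal values. CLAMP points of replicate 1 lie along and below the line (median ratio 0.837), and those of the other lists lie lower, with medians from 0.294 to 0.393.

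The dsCP190 calls of the proteins were also read together at each member. A total of 69 members had peaks in all 8 lists and 55 had none in the 4 dsCP190 lists. At 60 members CP190 had a peak in both dsCP190 lists and CLAMP in neither, and at 43 CLAMP had one in both and CP190 in neither. Whether these counts differ from those that unrelated calls would give was not tested, and they were not taken for other shared regions. Where CP190 was kept in both lists, CLAMP was called at 70.3% of 202 members in replicate 1 and at 34.2% in replicate 2. Where CP190 was in neither, CLAMP was called at 68.0% of 175 and at 25.1%. The CLAMP share was thus lower without CP190 in both lists, by more in replicate 2, with overlapping intervals. In the weakest CLAMP quintile the order was the opposite in replicate 1, with CLAMP at 6 of 41 members that kept CP190 and at 6 of 24 that did not. From the second to the fourth quintile, replicate 1 had CLAMP at 12 of 31, 20 of 26 and 44 of 44 members that kept CP190. Where CP190 was in neither list, these counts were lower in share, at 6 of 21, 22 of 40 and 42 of 47. Within the strongest CLAMP quintile, CLAMP was called in replicate 2 at 51 of 60 members that kept CP190 and at 33 of 43 that did not. Its fold ratio to mock in replicate 1 had a median of 0.872 at those 60 and 0.702 at those 43, with overlapping quartiles (0.750 to 1.06 and 0.613 to 0.894). These splits rest on dsCP190 calls and were not tested.

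At members with separate summits, the dsCP190 peaks that were read lay mostly at the mock position of their own protein. Among the 249 members with mock summits more than 500 bp apart, CP190 was called at 128 in replicate 1, and its dsCP190 summit was nearer to the mock CP190 summit at 120 and nearer to the CLAMP summit at 8. In replicate 2 the counts were 167 and 13 of 180. The median distance of the remaining CP190 summit from its mock position was 26.3 bp in replicate 1 and 26.5 bp in replicate 2. The dsCP190 CLAMP summit was nearer to the mock CLAMP summit at 195 of 203 and 93 of 96 called members. Only dsCP190 peaks that overlapped the mock region of the same protein were read, so a peak outside that region could not be counted. This search favours each protein's own position, and no preference between the positions can be read from these counts.

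Position along the gene went with strength and with calls. Where CP190 sat at a gene end (190 members), CLAMP was called at 81.1% and 38.4% and CP190 at 50.5% and 76.3% in replicates 1 and 2. Where CP190 also lay off gene ends (296 members), CLAMP was called at 63.9% and 25.0% and CP190 at 43.2% and 48.6%. The former were also the stronger sites in mock cells, with median percentiles of 72.4 for CLAMP and 70.5 for CP190 against 66.1 and 51.7, and their regions were wider. The part of strength and width in this difference was not tested.

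CP190 strength was lower farther from gene ends, and CLAMP strength was not ordered in this way. The median CP190 percentile was 69.0 at the 185 members 500 to 1000 bp from an end, 67.5 at the 96 between 1000 and 2000 bp, 55.4 at the 82 up to 5000 bp, 39.5 at the 52 up to 10000 bp and 39.9 at the 71 beyond. The median CLAMP percentile over the same classes lay between 65.6 and 73.6. CP190 calls after dsCP190 followed CP190 strength, with 51.4% and 74.1% in replicates 1 and 2 at 500 to 1000 bp and 33.8% and 42.3% beyond 10000 bp. CLAMP calls were 75.7% and 32.4% in the nearest class and 60.6% and 23.9% in the farthest, with overlapping intervals in both lists.

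The strongest members by the mean of both percentiles kept both proteins. The first was an intergenic region at chr2L:4809865-4811197 on dm6, 2777 bp from CG15629, with summits 17 bp apart. Its CLAMP fold was 25.3 and 30.9 in mock cells and 25.6 and 8.83 after dsCP190 (replicates 1 and 2), and its CP190 fold was 31.9 and 31.3 in mock cells and 5.21 and 11.6 after dsCP190. Both dsCP190 CP190 values were below both mock values, while for CLAMP only replicate 2 was. The second, inside puc, a phosphatase that restrains JNK signalling, had CLAMP values of 16.6 and 21.5 in mock and 16.6 and 6.44 after dsCP190. Its CP190 values were 35.7 and 28.0 in mock and 6.55 and 10.4 after dsCP190, and its CP190 summit lay 50 bp from the end of the neighbouring CG7900. The third was inside mld, a zinc-finger protein needed for ecdysone synthesis, at chr3R:24586384-24587206. Its CLAMP fold was 21.7 and 24.0 in mock cells and 23.8 and 12.0 after dsCP190, and its CP190 fold was 30.4 and 24.8 in mock cells and 5.65 and 7.00 after dsCP190. These 3 regions share the pattern of a CP190 fold far below mock in both lists and a CLAMP fold near mock in replicate 1 only.

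Of the 12 strongest, the others were at ftz-f1, the adaptor 14-3-3epsilon, the RNA helicase bel, the tropomyosin Tm1, the Hox gene Antp, the cell-polarity gene insc, CG8635, the endosomal GTPase Rab5 and CG9331. All but CG9331, which lacked a CLAMP peak in dsCP190 replicate 2, had a peak in all 8 lists. The region in ftz-f1, a nuclear receptor of the ecdysone cascade, had a CLAMP fold of 16.1 and 13.6 in mock cells and 20.1 and 7.78 after dsCP190. In replicate 1 its value was thus above both mock values. The region in Antp at chr3R:6912631-6913429 lay 16782 bp from the nearest gene end and had CP190 values of 48.5 and 37.0 in mock cells and 16.5 and 31.1 after dsCP190, the latter the highest remaining CP190 fold of the 12. At Rab5 the dsCP190 CLAMP values of 9.28 and 9.81 were nearly equal, and both lay below the mock values of 20.8 and 22.5.

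Members that lost CLAMP in both lists had weak CLAMP, with a CP190 strength slightly above that of all members. The first 8 by rank were at for (a cGMP-dependent kinase), siz, CG6836, CG11044, ham, Mef2, nuf and hid (a trigger of apoptosis). Over the 142 members that lost CLAMP, the median CLAMP percentile was 32.5, against 68.4 over all members, and the median CP190 percentile was 68.4, against 63.3. At Mef2, the muscle regulator of the MADS family, the intragenic region at chr2R:9942735-9943150 had a CLAMP fold of 3.00 and 3.70 in mock cells and no CLAMP peak after dsCP190. Its CP190 fold was 52.2 and 34.5 in mock cells and remained at 9.87 and 16.6. At siz the CP190 values of 25.9 and 19.5 became 10.1 and 28.4, so that the replicate 2 value lay above both mock values. CG11044 was the exception among the 8, with CP190 values of 15.03 and 17.1 in mock cells and no peak of either protein after dsCP190.

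Members that lost CP190 in both lists had weak CP190, with a CLAMP strength near that of all members. The 8 strongest were at cu, EDTP, rdx (an adaptor of a Cullin-3 ubiquitin ligase), AdoR (the adenosine receptor), nahoda, CG10126, pnt (an ETS factor of receptor tyrosine kinase signalling) and Nckx30C. Over the 175 members that lost CP190, the median CP190 percentile was 32.6, against 63.3 over all members, and the median CLAMP percentile was 67.1, against 68.4. At cu the CLAMP fold was 16.5 and 20.2 in mock cells and 16.5 and 5.92 after dsCP190, while CP190 fell from 17.7 and 16.6 to no peak. At nahoda the CLAMP fold of 23.6 and 20.4 in mock cells was 13.0 in dsCP190 replicate 1, with no peak in replicate 2. The other 7 of these regions had a CLAMP peak in both dsCP190 lists.

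The 3 ecdysone genes with several members showed that regions of 1 gene differed. In Eip75B, 5 regions lay within a gene of 113744 bp. The region at chr3L:18025934-18026412 had CP190 values of 44.4 and 30.9 in mock cells and 3.97 and 7.50 after dsCP190, with a weak CLAMP fold of 3.66 and 2.35 in mock cells alone. The region at chr3L:18020810-18021614 had the opposite balance, with a CLAMP fold of 9.75 and 8.66 in mock cells and 6.29 in dsCP190 replicate 1, and a CP190 fold of 3.96 and 4.12 in mock cells alone. The remaining 3 regions of Eip75B lost CLAMP in both lists, and 2 of them overlap 1 CP190 region, so their CP190 values are the same.

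In Eip74EF the 4 regions kept CLAMP in replicate 1, and the strongest CLAMP site, at chr3L:17603556-17604422, kept it in both lists (11.7 and 14.2 in mock cells, 14.3 and 6.10 after dsCP190). CP190 at that site was 4.80 and 5.62 in mock cells and was not called after dsCP190. Of the 4, only the region nearest to a gene end, at a distance of 5128 bp, kept CP190, at 2.73 and 6.73 from 13.6 and 11.9. In ftz-f1 CLAMP kept a peak in replicate 1 at all 3 regions and in replicate 2 at 2. CP190 was lost at the 1 of the 3 with the lowest CP190 fold, 5.76 and 3.91 in mock cells. EcR, the ecdysone receptor, had 1 region with summits 2.5 bp apart, a CLAMP fold of 2.28 and 2.56 in mock cells alone, and a CP190 fold of 27.3 and 19.6 in mock cells and 12.7 and 21.8 after dsCP190.

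In tara all 5 regions kept CLAMP in replicate 1, among them one whose mock CLAMP fold was only 2.04 and 2.03. The strongest, at chr3R:16242177-16243201, had a CLAMP fold of 12.8 and 20.6 in mock cells and 27.2 and 8.57 after dsCP190. Its CP190 fold was 3.07 and 3.76 in mock cells and 2.38 in dsCP190 replicate 1. In crp, a bHLH factor gene, CLAMP was called in all 4 CLAMP lists at the 3 members, and CP190, weak in mock cells at 2.88 to 4.19, had a dsCP190 peak at 1 of them. In pros, a homeodomain factor of neural cells, CP190 was lost at the 3 members and CLAMP at 2.

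**Figure D5:**
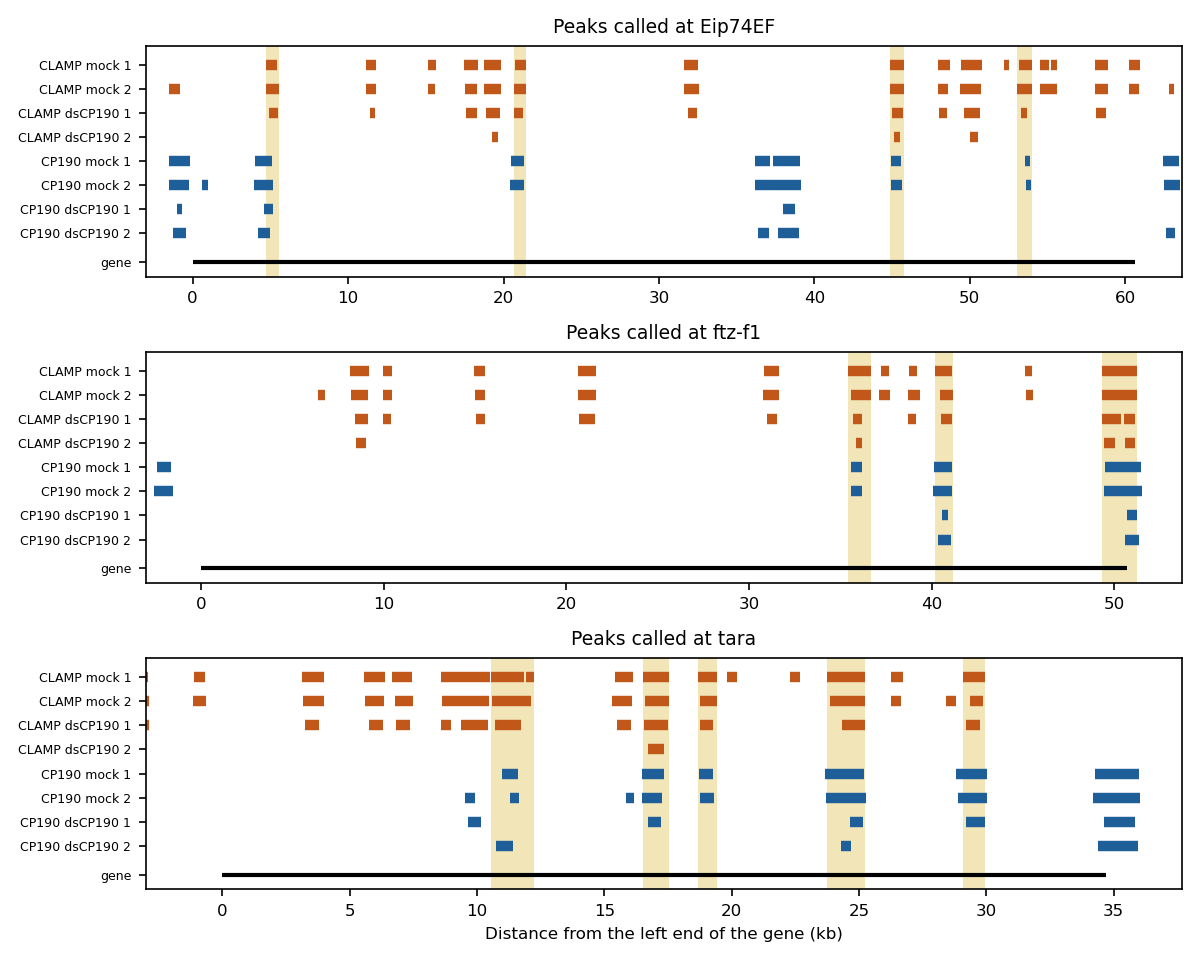
Peaks called in each of the 8 lists along Eip74EF, ftz-f1 and tara, as bars at their distance in kb from the left end of the gene, CLAMP in orange and CP190 in blue, with the gene as a black line and the shared regions off gene ends shaded. Eip74EF holds 4 such regions, ftz-f1 holds 3 and tara 5; CLAMP bars of dsCP190 replicate 1 remain in all of them, and CP190 bars remain in some.

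Members named from the gene lists included regions with unlike strengths of the proteins. In Abd-B, the most posterior Hox gene, the region at chr3R:16948397-16949123 lay 21552 bp from the nearest gene end. It had the highest mock CLAMP fold of all members in both lists, with 28.6 and 34.9 in mock cells and 35.2 and 16.4 after dsCP190, so that CLAMP in replicate 1 was not below mock. Its CP190 fold was 3.27 and 4.56 in mock cells and 4.62 in dsCP190 replicate 1, with no peak in replicate 2. The region in mod(mdg4), which encodes an insulator partner of CP190, had a CLAMP fold of 20.4 and 23.2 in mock cells and 15.3 and 9.42 after dsCP190, against CP190 values of 2.80 and 2.45 in mock cells alone. The reverse held in otp, a homeodomain gene, with a CLAMP fold of 2.33 and 3.14 in mock cells alone. CP190 values there were 33.7 and 25.7 in mock cells and 21.1 and 20.8 after dsCP190. At ush, a zinc-finger partner of GATA factors in blood cells, the CP190 values of 23.0 and 14.7 in mock cells and 18.3 and 21.4 after dsCP190 overlapped, and CLAMP was called in all lists.

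The weakest 4 members lay in wnd, Dif, capt and CG31729. Their mock folds were between 1.92 and 2.83 for CLAMP and between 1.92 and 3.94 for CP190. None kept CLAMP, and only Dif, an NF-κB factor of the immune response, had a CP190 peak after dsCP190, at 2.69 in replicate 1. The lowest fold that could be called over all members had a median of 2.22 and 2.51 for CLAMP in dsCP190 replicates 1 and 2, so most of these mock CLAMP values were near that limit.

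Some members lay near genes that the choice of protein-coding ends left out. At 39 (8.02%) the CLAMP summit was within 500 bp of the end of a non-coding gene, nearest to a lncRNA at 20, an antisense RNA at 8, a tRNA at 5, a miRNA at 2 and a snoRNA at 2. The strongest by rank lay 369 bp from Hsromega, the heat-shock lncRNA, between genes and 2498 bp from SIFaR. Its CLAMP fold was 11.5 and 13.2 in mock cells and 9.48 and 4.03 after dsCP190, and its CP190 fold was 23.1 and 19.8 in mock cells and 4.62 and 6.82 after dsCP190. Both proteins were thus called in all lists at this region. In Sema1a, a transmembrane guidance protein, a region 239.5 bp from a tRNA gene and 52253 bp from the nearest protein-coding end had CP190 values of 10.3 and 11.4 in mock cells and 3.71 and 3.77 after dsCP190. The 39 members kept CLAMP at 66.7% and 35.9% and CP190 at 59.0% and 69.2%, and the intervals of all 4 shares overlapped those of the other 447 members.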

How the data were processed

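The submitters' processing notes name the dm6 build, MACS2 2.1.1.20160309 and Bowtie2 2.3.4.1, along with Picard 2.18.9, cutadapt 1.16 and deepTools 3.0.2, without saying what each did. Settings and control of the peak calling: not given in the sources used here. Each list holds the peaks of 1 library. Besides the summit position, the deposited values of a peak are a score, the fold enrichment over local background, and the −log10 of its p and q, all as the authors deposited them.

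Peak and summit coordinates were taken as deposited. Fold and −log10 p together gave the fragment number at each summit, which was whole (within 0.01) for 99.9% to 100% of the peaks of a list, and the local background, whose ratio between lists gave relative depth. Genes came from a RefSeq table of Release 6 with 13911 protein-coding genes on the arms and no strand or exons, so exon, intron and UTR were not assigned. A region is named by the gene around its CLAMP summit, else by the nearest gene. The named regions were the first 12 by rank, the first 8 that lost each protein, the first 6 in all lists, the last 4, 3 on each side of the 500 bp limit, those of genes with 3 or more members, 10 near non-coding genes and up to 4 per gene list; some of these are given by name or in counts only, and those in otp, mod(mdg4) and Abd-B come from the lists. Of 222 list symbols 212 matched, and 1 of the 11 lists is not reported here. The members, lists and rules were chosen with earlier results of these data known.

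Shares carry Wilson intervals. Differences between classes were tested over the 2 dsCP190 libraries by a two-sided exact sign-flip permutation test. Whether the replicates were separate cultures is not stated in the labels, so a p-value here reflects how these libraries vary, and that variation can be technical. Scripts (Python 3.11.15, pandas 2.3.3, scipy 1.17.1) were tested on simulated data. No genome sequence was used, so the planned motif search was not run.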

Additional observations from a re-analysis of the deposited data

How the results depend on the processing

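The results were recomputed with 2 stricter peak thresholds, other overlap and distance limits, each library left out, dsCP190 lists of equal length, and 3 alternatives chosen after seeing the data (a depth limit, CP190 summits also off gene ends, and non-coding genes counted as genes). No mean difference over the 2 libraries changed sign, although weighting to mock strength brought the 14.97 points in CLAMP share against shared regions at gene ends to 0.0833 (-3.73 in replicate 1 and 3.90 in replicate 2), the 12.5 against CLAMP regions without CP190 to 2.42 and the -3.63 in CP190 share to -0.104 (1.45 and -1.66). The number of members was 148 with summits within 100 bp, 301 with a limit of 1000 bp and 296 with CP190 also off gene ends. The share inside genes was 77.7% with summits within 100 bp and 78.4% with CP190 also off gene ends. The CP190 share after dsCP190 was 34.8% at a −log10 q limit of 10 and 42.2% with summits within 100 bp. Leaving out 1 library at a time gave 492 to 547 members, CLAMP shares of 30.2% to 70.6%, CP190 shares of 46.1% to 59.5% and differences in CP190 share of 30.3 to 31.5 points from regions without CLAMP. Cutting the dsCP190 CLAMP lists to equal length gave a CLAMP share of 31.8%.

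The class differences were paired by dsCP190 library. Without the replicate block, an exact permutation test over the 4 shares gave p = 0.333 for the 30.7 points in CP190 share, its smallest value, and 0.667 for the 14.97, 12.5 and -3.63 points of the other 3 differences; none passed with or without it. Sign-flip p-values cannot fall below 0.5, so no stability can be read from them. Depth in the CLAMP dsCP190 libraries limits calls at folds near 2.22 and 2.51.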

Other observations

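The members of the 4 autosomal arms had CLAMP peaks in dsCP190 replicate 1 at 64.3% on 2L, 69.0% on 2R, 66.7% on 3L and 81.1% on 3R, and in replicate 2 at 31.3%, 23.3%, 30.9% and 34.8%. On 3R the CLAMP share was thus the highest in both lists, with an interval of 73.5 to 86.8 in replicate 1 that lay above that of 2L alone (55.3 to 72.5). For CP190 the arms ranged from 37.4% on 3L to 52.3% on 3R in replicate 1 and from 54.3% on 2R to 62.6% on 2L in replicate 2, so their order differed between the lists. The differences between arms were not tested.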
